A study of Mus musculus with 10 samples.

Results

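The change in gene expression that accompanies the induction of parthenogenetic embryonic stem cells (pESCs) into primordial germ cell-like cells (PGCLCs) was described from 4 of the 10 RNA-seq libraries of the series, 2 of pESCs and 2 of pESC-PGCLCs. Genes entered the description when they reached at least 1 TPM in at least 2 of these 4 libraries, which 15211 of the 36066 genes in the table did. At that boundary, Ptpre lay just inside with a second highest value of 1.0002 TPM and Crb2 just outside with 0.99961 TPM. TPM, a length-corrected transcript level, is the number of reads on a gene divided by its length and scaled so that every library has the same total.

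The cells were C57BL6 mouse cells carrying an Actin-GFP transgene. The pESCs are a cell line derived from oocytes activated with strontium, so all of their chromosomes are maternal. They are labelled as 1 line and were established on a layer of mouse embryonic fibroblasts, in medium with serum and LIF. Before induction they were kept in a 2i and LIF medium with a reduced dose of its MEK inhibitor. The other inhibitor of that medium is not named in the study's methods. They were turned into epiblast-like cells with activin A and bFGF and then cultured as floating aggregates for 4 days with BMP4 (500 ng/ml), SCF (100 ng/ml), EGF (50 ng/ml) and LIF (1000 IU/ml). The aggregates were dissociated, and cells positive for CD61 and SSEA1 were collected by flow cytometry as pESC-PGCLCs. The epiblast-like step between the 2 compared groups was not analysed here. The comparison therefore spans a change of medium, aggregation, dissociation and sorting as well as the change of cell type, and these cannot be told apart. ESCs from fertilized embryos, ESC-PGCLCs made in the same way and PGCs from embryonic gonads, whose embryonic day the labels do not give, gave 2 libraries each, which shared the variance estimate and served for comparison.

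Primordial germ cells are the founders of eggs and sperm. In the mouse embryo, BMP4 from the extraembryonic ectoderm acts on the epiblast, and a small group of cells turns on Prdm1, Prdm14 and Tfap2c, which repress the somatic programme and restore part of the pluripotency network. On the way to the gonad these cells erase DNA methylation, and once there they turn on genes such as Ddx4 and Dazl, and in females the meiotic genes under Stra8.

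**Figure D1:**
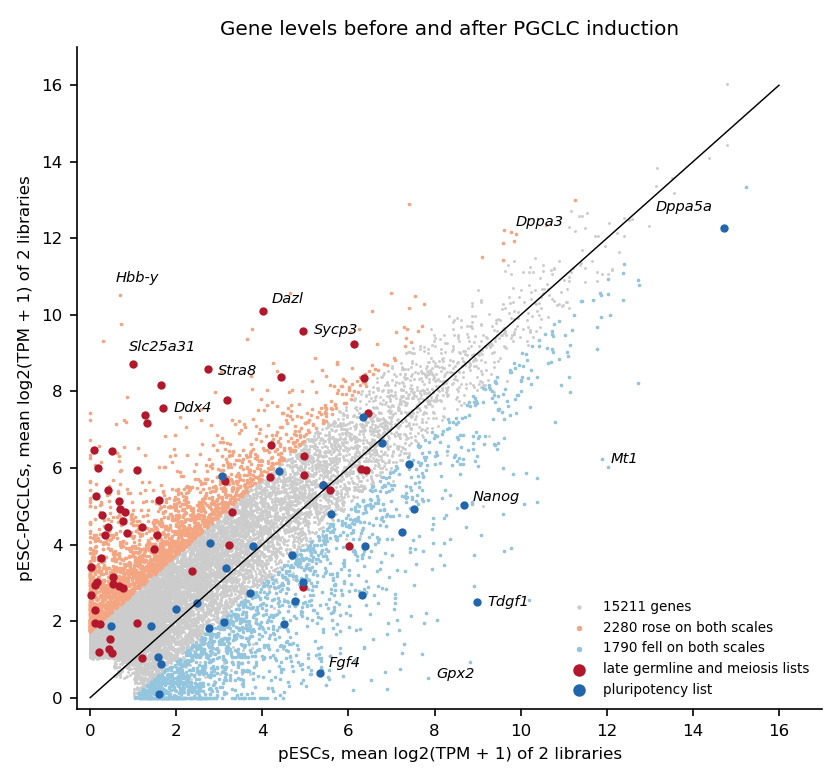
Mean log2(TPM + 1) of the 2 pESC libraries (x axis) and the 2 pESC-PGCLC libraries (y axis) for 15211 genes, with the line of equality. Orange and blue points are the 2280 genes that rose and the 1790 that fell on both scales; members of the late germline and meiosis lists (red) lie mostly above the line and many members of the pluripotency list (dark blue) below it.

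The recovered depth was 12176509 and 12949274 reads for pESCs and 14807827 and 16704568 for pESC-PGCLCs, and 3 reads on a gene of median exon length (2182 nt) were worth 0.146 to 0.161 TPM. Across the 15211 genes, Pearson's r of log2(TPM + 1) was 0.975 between the pESC libraries and 0.985 between the pESC-PGCLC libraries, and 0.774 to 0.806 between the groups. The study calls its replicates biological, but no label names separate cultures, so p-values measure the spread between these samples only. With 2 libraries against 2, an exact permutation test of a single gene could not go below p = 0.333, so the tests rest on limma's variance model over all 10 libraries. Fold changes are differences of log2(TPM + 1), given with their standard error (SE) for the main genes, which understate the change of genes at low levels.

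By limma, at an adjusted p under 0.05 and at least 2-fold, 5594 genes (36.8%) rose and 1790 (11.8%) fell in pESC-PGCLCs. How the calls fell into higher and lower changed with the scaling. Over the 15211 genes the log2 fold change had a median of 0.67 as deposited. It was -0.06 after each library was centred on its median over 9024 genes that reached 1 TPM in all libraries. After centring, 2280 genes (15%) rose and 3488 (22.9%) fell. All 2280 genes that rose after centring had also risen on the deposited scale, and all 1790 that fell on the deposited scale also fell after centring. These are the genes referred to as changed on both scales, and at least 16-fold changes were found for 130 that rose and 97 that fell. Counts for gene lists are given as deposited and, where they differ, after centring, and are to be read against the shares of all genes above. Both pESC-PGCLC libraries lay above both pESC libraries for 61.5% of the 15211 genes, and below them for 22.7%. A lack of overlap between the groups was thus common.

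The pESC-PGCLC libraries were checked against the markers of their label before the lists were read. In these bulk samples, fewer cells of a type and less RNA per cell cannot be told apart. Genes of PGC specification were present but not abundant, with Prdm1, Prdm14 and Tfap2c between 7.44 and 15.3 TPM, while Dppa3, Dazl, Ddx4 and Stra8 were between 186 and 4938 TPM. The POU factor gene Pou5f1, which PGCs are known to keep, was at only 2.98 and 2.88 TPM in the pESC-PGCLC libraries and at 3.14 and 1.62 TPM in the PGC libraries. The whole profiles had r of 0.937 and 0.955 with the same-numbered PGC libraries, and 0.915 and 0.899 with those of ESC-PGCLCs. Markers of other cells were present as well. The summed level of the 25 listed blood and erythroid genes in the table was 3445 and 2911 TPM in pESC-PGCLCs and 2210.0 and 2000 TPM in PGCs, against 6.18 and 11.6 TPM in pESCs. That of the 21 gonadal somatic genes was 91.3 and 84.3 TPM, against 10.1 and 11.1 TPM in pESCs. Their part in the germline results was not tested.

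Early germ cell genes moved in both directions. Of the 23 measured members of the list of PGC specification and early PGC genes, 9 rose and 6 fell, and 5 rose and 9 fell after centring. The shares of all genes were 36.8% and 11.8% (15% and 22.9% after centring). The list had a median log2 fold change of 0.18 against 0.67 for all genes. Prdm1, the transcriptional repressor that sets germ cell fate apart from the soma, was at 2.75 and 2.21 TPM in pESCs and at 8.71 and 10.4 TPM in pESC-PGCLCs (log2 fold change 1.6, SE 0.166, adjusted p = 0.000169). The groups did not overlap, as in most genes, but after centring its change was 0.87 and was not called. Prdm14, its partner in restoring pluripotency and erasing methylation, was at 10.9 and 15 TPM in pESCs and at 15.3 and 13.8 TPM in pESC-PGCLCs, with overlapping groups (log2 fold change 0.17, adjusted p = 0.448, and -0.56 after centring). Tfap2c, the AP-2 factor that acts with both, was at 3.56 and 4.55 TPM in pESCs and at 7.44 and 8.90 TPM in pESC-PGCLCs. Its log2 fold change of 0.86 (adjusted p = 0.0115) stayed below 2-fold.

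Of the genes that act after specification, several rose clearly. Nanos3, an RNA-binding protein that keeps migrating PGCs alive, was at 4.56 and 4.50 TPM in pESCs and at 64 and 71.9 TPM in pESC-PGCLCs (log2 fold change 3.64, SE 0.280, adjusted p = 4.64e-05), and all pESC-PGCLC values lay more than 10 times above those of pESCs. Dnd1, which works with Nanos proteins on messenger RNAs, rose from 4.91 and 5.50 TPM to 27.3 and 25.6 TPM (log2 fold change 2.15, adjusted p = 4.15e-05). Dppa3 (Stella), which protects the maternal genome from demethylation after fertilization, was already high at 709 and 873 TPM in pESCs and reached 4938 and 4547 TPM (log2 fold change 2.59, adjusted p = 3.51e-05). Dppa3 lies on chromosome 6 from 122626410 to 122630272 (GRCm38), and no pESC-PGCLC value came near those of pESCs.

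The receptor gene Kit and its ligand gene Kitl both rose. Kit was at 3.23 and 3.59 TPM in pESCs and at 11.3 and 10.4 TPM in pESC-PGCLCs (log2 fold change 1.43, adjusted p = 0.00224), a change of 0.70 after centring that was not called. Kitl, usually made by the somatic cells around germ cells, was near 0 in pESCs at 0.0578 and 0.156 TPM and stood at 35.8 and 36.4 TPM in pESC-PGCLCs (log2 fold change 5.07, adjusted p = 1.81e-06), and at 61.3 and 70.6 TPM in PGCs. The stem cell factor Sall4 rose from 18 and 21.7 TPM to 52.7 and 68.4 TPM, a change of 1.55, and Lin28a, which blocks let-7 microRNAs, from 0.399 and 0.404 TPM to 2.67 and 2.69 TPM, a change of 1.39. Both were chosen after their values were seen, and neither was called after centring. The list also held genes that fell. Stmn2, a tubulin-binding protein, dropped from 93.3 and 93.4 TPM to 1.36 and 2.50 TPM (log2 fold change -5.04, adjusted p = 4.2e-06). Ifitm3 (Fragilis), an early marker of the PGC precursors, was at 5655 and 2143 TPM in pESCs and at 839.8 and 815 TPM in pESC-PGCLCs (log2 fold change -2.07, adjusted p = 0.00615). It was not called when the compared groups alone were fitted with limma (adjusted p = 0.0712). Its pESC libraries differed more from each other than its pESC-PGCLC libraries did, and Ifitm genes resemble each other, so its level is uncertain. The epithelial factor gene Elf3 also fell, with a log2 fold change of -3.36, as did the ectoenzyme gene Cd38, with -2.46. Elf3 and Cd38 were chosen after their values were seen.

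**Figure D2:**
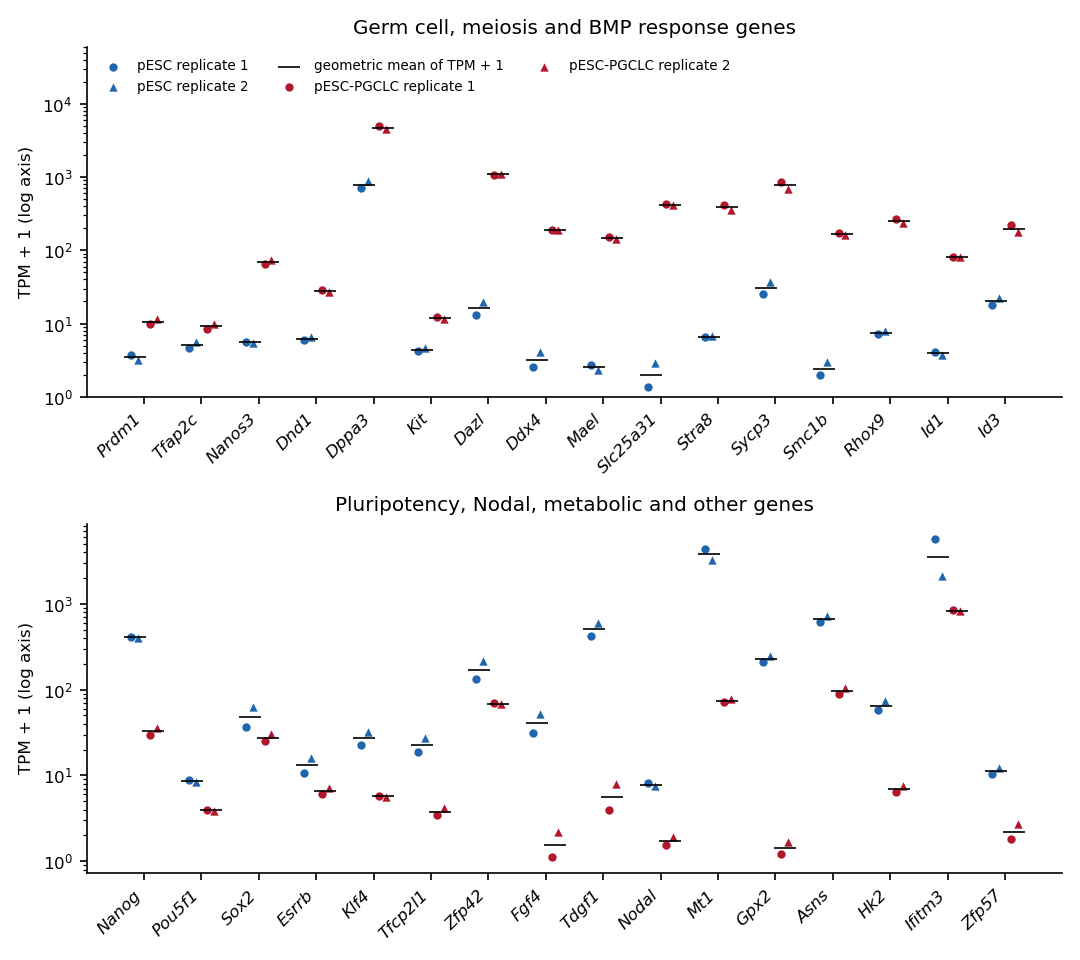
TPM + 1 on a log axis for single genes in each of the 2 pESC libraries (blue) and 2 pESC-PGCLC libraries (red), with the geometric mean of each group as a bar. Genes were placed in the panels by the direction of their change, and genes with overlapping groups, such as Prdm14, Smad7 and Pkm, are not drawn. By this choice all pESC-PGCLC values lie above the pESC values of the same gene in the upper panel, with the smallest gap for Tfap2c. In the lower panel all lie below, with the smallest gap for Sox2.

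Genes of the late germline programme rose from low levels. Of 27 measured genes of late and gonadal PGCs, 20 rose and 1 fell (19 and 2 after centring), with a median log2 fold change of 3.4 against 0.67 for all genes, while 4 listed genes of the table stayed under the 1 TPM rule. Ddx4 (Vasa), an RNA helicase of the germ granule on chromosome 13 from 112598333 to 112652475, was at 1.51 and 3.10 TPM in pESCs and at 186 and 191 TPM in pESC-PGCLCs (log2 fold change 5.88, SE 0.280, adjusted p = 6.4e-06). Dazl, an RNA-binding protein needed for germ cells to commit to gametogenesis, was at 12.1 and 18.7 TPM in pESCs and at 1084 and 1115 TPM in pESC-PGCLCs (log2 fold change 6.10, SE 0.190, adjusted p = 2.06e-06), and at 1958 and 2095 TPM in PGCs. The gene with the largest change of the list was Slc25a31, an ADP/ATP carrier of the mitochondria of germ cells on chromosome 3 from 40708855 to 40726096. It was at 0.374 and 1.90 TPM in pESCs and at 422 and 416 TPM in pESC-PGCLCs (log2 fold change 7.72, SE 0.376, adjusted p = 6.92e-06). Rbm46, an RNA-binding protein of meiotic entry, was at 0 and 0.139 TPM in pESCs and at 86.4 and 89.8 TPM in pESC-PGCLCs (log2 fold change 6.38, adjusted p = 1.34e-06).

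Genes of the piRNA pathway, by which small RNAs silence transposons in the germline, made up much of this list. Mael, a germ granule protein, was at 1.71 and 1.33 TPM in pESCs and at 149 and 139.6 TPM in pESC-PGCLCs (log2 fold change 5.85, adjusted p = 1.34e-06). Asz1, which anchors the granule to mitochondria, rose from 0.402 and 0.449 TPM to 82.9 and 88.9 TPM. The Argonaute gene Piwil2 rose from 0.258 and 0.262 TPM to 17.4 and 18.8 TPM, and the helicase gene Mov10l1 that loads piRNAs rose from 0.190 and 0.221 TPM to 25.5 and 27.6 TPM. The genes in this paragraph other than Mael were chosen after their values were seen. Among the Tudor domain genes, whose proteins bind methylated Piwi proteins, Tdrkh changed by 5.01, Tdrd7 by 3.4, Tdrd5 by 2.88 and Tdrd1 by 2.66, all upward, whereas Tdrd12 fell from 52.1 and 78.5 TPM to 13.5 and 15.5 TPM (log2 fold change -2.07, adjusted p = 0.000311). Gtsf1, a zinc finger cofactor of Piwi proteins, was already at 6.71 and 8.80 TPM in pESCs and rose by 2.54.

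Further members of the late germline list rose. The bromodomain gene Brdt rose from 0.111 and 0.609 TPM to 20.9 and 21.3 TPM, and the TFIID subunit gene Taf7l rose from 0.456 and 0.719 TPM to 31.6 and 37.2 TPM. Tex101, a surface glycoprotein of germ cells, rose from 0.0687 and 0.209 TPM to 73.4 and 54.9 TPM, with a log2 fold change of 5.83. These genes were named after their values were seen. Tex19.1, a mammal-specific germline protein, was already at 28.6 and 31.6 TPM in pESCs and at 56 and 54.9 TPM in pESC-PGCLCs, a change of 0.86 that stayed below 2-fold.

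Promoters of germline genes are known to be held silent in stem cells through 2 short motifs, CACGTG, bound by Max with its partners, and GGCGGGA, bound by E2F6. The 250 bases before the RefSeq start site (GRCm38.p6) are shown for Slc25a31 and Rbm46, which rose most of the list, and for Ddx4 and Mael, the helicase and granule genes above. They lie at chr3:40708621-40708870 on the plus strand (Slc25a31), and on the minus strand at chr3:82876484-82876733 (Rbm46), chr13:112652311-112652560 (Ddx4) and chr1:166238745-166238994 (Mael). Sequences read 5′ to 3′ toward the gene, and capitals mark CACGTG, which reads the same on both strands, and GGCGGGA or its reverse complement TCCCGCC.
Slc25a31: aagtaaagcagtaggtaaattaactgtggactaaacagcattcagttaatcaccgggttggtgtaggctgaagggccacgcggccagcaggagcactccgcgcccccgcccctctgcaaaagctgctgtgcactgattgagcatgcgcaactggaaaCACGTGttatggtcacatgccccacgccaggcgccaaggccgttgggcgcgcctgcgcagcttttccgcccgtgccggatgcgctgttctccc
Rbm46: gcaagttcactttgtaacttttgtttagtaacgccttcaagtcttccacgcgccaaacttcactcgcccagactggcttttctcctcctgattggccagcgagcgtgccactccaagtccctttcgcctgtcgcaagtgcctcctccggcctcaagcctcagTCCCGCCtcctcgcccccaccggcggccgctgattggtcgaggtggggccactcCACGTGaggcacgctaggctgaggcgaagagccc
Ddx4: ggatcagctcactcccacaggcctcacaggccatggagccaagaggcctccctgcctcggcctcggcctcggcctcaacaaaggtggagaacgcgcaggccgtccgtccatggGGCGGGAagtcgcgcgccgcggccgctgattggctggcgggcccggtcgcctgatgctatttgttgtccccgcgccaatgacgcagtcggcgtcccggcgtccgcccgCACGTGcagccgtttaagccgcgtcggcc
Mael: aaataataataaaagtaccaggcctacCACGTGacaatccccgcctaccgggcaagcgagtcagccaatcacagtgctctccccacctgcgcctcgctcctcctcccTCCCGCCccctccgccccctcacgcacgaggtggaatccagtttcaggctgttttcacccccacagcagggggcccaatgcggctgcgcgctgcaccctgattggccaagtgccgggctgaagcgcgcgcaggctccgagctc
All of these held CACGTG, and all but Slc25a31 also held GGCGGGA, with 18 CG dinucleotides in each of Slc25a31, Rbm46 and Mael and 31 in Ddx4. Over the list, 17 of the 20 genes that rose had a promoter in the RefSeq table, and 9 of those 17 (52.9%) held CACGTG, 3 (17.6%) GGCGGGA and 3 (17.6%) both. Of all 27025 promoters of the table, 6.05% held CACGTG, 9.76% GGCGGGA and 0.899% both, with a median of 6 CG dinucleotides against 18 for the list. Of the 9381 promoters matched to the 15211 measured genes (61.7%), 8.45% held CACGTG, 18.1% GGCGGGA and 1.74% both, with a median of 16 CG dinucleotides, so the list's GGCGGGA share and CG count lay near those of measured genes. The share with CACGTG was lower in the other sets. It was 9.39% for genes that rose on both scales and 7.8% for those that fell. For the meiosis genes that rose it was 22.7%, and for the Rhox genes that rose 7.69%. A match says only that these letters are in the window. The 4 promoters were picked after their sequences were known.

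Meiotic genes followed the same course. Of 36 measured genes, 28 rose and 1 fell (24 and 1 after centring), and the median log2 fold change was 2.52 against 0.67 for all genes. Stra8, the gatekeeper of meiosis that retinoic acid and BMP turn on, was at 5.49 and 5.76 TPM in pESCs and at 409.9 and 359 TPM in pESC-PGCLCs (log2 fold change 5.86, SE 0.158, adjusted p = 1.81e-06). The pESC-PGCLC values lay just above those of PGCs, at 333 and 343 TPM. Zglp1, which is not a member of this list, is the transcription factor through which BMP is known to start the oogenic programme. It was at 0.523 and 1.06 TPM in pESCs and at 162 and 133 TPM in pESC-PGCLCs (log2 fold change 6.38, adjusted p = 3.9e-06). Meioc, whose product moves germ cells from mitosis to meiosis, rose from 0.740 and 1.6 TPM to 57.2 and 65.2 TPM. Its partner Ythdc2, a reader of methylated RNA, rose from 1.42 and 2.55 TPM to 19.23 and 17.1 TPM, and both were chosen after their values were seen.

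The cohesin subunits particular to meiosis, which hold sister chromatids together along the chromosome axis, rose together. Smc1b was at 0.984 and 1.94 TPM in pESCs and at 170.0 and 163 TPM in pESC-PGCLCs (log2 fold change 6.12, adjusted p = 2.31e-06). Stag3 rose from 0.675 and 0.845 TPM to 28.9 and 26.9 TPM (log2 fold change 4.04, adjusted p = 1.68e-05) and Rec8 from 1.05 and 1.61 TPM to 21 and 20.9 TPM (log2 fold change 3.25, adjusted p = 1.72e-05). All pESC-PGCLC values of these genes lay above those of pESCs, as they did for 61.5% of all genes.

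Parts of the synaptonemal complex, the zipper between paired chromosomes, rose from different starting levels. Sycp3, a lateral element protein, was at 24.7 and 35.8 TPM in pESCs and at 867 and 685 TPM in pESC-PGCLCs (log2 fold change 4.65, SE 0.239, adjusted p = 8.47e-06), so it was transcribed in pESCs already. Sycp1, the transverse filament, rose from 0.672 and 0.973 TPM to 18.3 and 19 TPM (log2 fold change 3.44, adjusted p = 4.2e-06). Tex12, a central element protein, was at 2.13 and 2.16 TPM in pESCs and at 324 and 255 TPM in pESC-PGCLCs (log2 fold change 6.52, SE 0.192, adjusted p = 1.96e-06), the largest change of the list. Among the other central element genes, chosen after their values were seen, Syce1 rose from 6.55 and 9.80 TPM to 222 and 218 TPM, Syce2 from 64.5 and 73.6 TPM to 573 and 647 TPM and Syce3 from 0.206 and 0 TPM to 39.9 and 35 TPM.

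Recombination genes changed less evenly. Spo11, which makes the double-strand breaks of meiosis, rose from 0.0580 and 0.118 TPM to 3.71 and 4.15 TPM (log2 fold change 2.18, adjusted p = 0.000123) and so stayed low. Hormad1, an axis protein that promotes breaks, rose from 68.5 and 97.5 TPM to 317 and 329 TPM (log2 fold change 1.97, adjusted p = 0.000205). The recombinase gene Dmc1 was at 8.69 and 8.15 TPM in pESCs and at 14.6 and 15.4 TPM in pESC-PGCLCs, a change of 0.76 that stayed below 2-fold. Of genes named after their values were seen, Meiob, a single-strand DNA-binding protein, rose by 4.24 and the helicase gene Hfm1 by 2.63. Mcmdc2, needed for strand invasion, was the single gene of the list that fell, from 29.4 and 30.0 TPM to 6.53 and 6.39 TPM (log2 fold change -2.04, adjusted p = 4.84e-05).

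The Rhox homeobox genes, a cluster on the X chromosome expressed in germ cells and placenta, rose as a family. Of 20 measured members, 18 rose and 0 fell (16 and 0 after centring). Their median log2 fold change was 3.78, and the levels of all 32 members in the table summed to 216 and 242 TPM in pESCs and to 2744 and 2487 TPM in pESC-PGCLCs. Rhox9 was at 6.22 and 6.82 TPM in pESCs and at 266 and 236 TPM in pESC-PGCLCs (log2 fold change 5.06, adjusted p = 7.54e-06). Rhox2d rose from 0.166 and 0 TPM to 69.6 and 62.8 TPM and Rhox7b from 0.521 and 0.211 TPM to 50.8 and 39.7 TPM. Rhox5 and Rhox6, chosen after their values were seen, were the most abundant members in pESC-PGCLCs. Rhox5 rose from 174 and 201 TPM to 1472 and 1398 TPM and Rhox6 from 19.9 and 16.3 TPM to 452 and 409.5 TPM. The Rhox2, Rhox4 and Rhox7 copies resemble each other, and reads may be split between them, so the level of a single copy is uncertain. Predicted genes and small RNAs aside, the 12 that rose most also held genes outside the lists, among them Zglp1, given above. Gchfr, a regulator of tetrahydrobiopterin synthesis, rose from 0.706 and 0.894 TPM to 240.3 and 223 TPM (log2 fold change 7.01, adjusted p = 4.87e-06), and Tex13b, an X-linked testis gene, from 0 and 0.330 TPM to 102 and 88 TPM (log2 fold change 6.37, adjusted p = 2.06e-06). Cst8, a cystatin of the reproductive tract, had no read in pESCs and 79.8 and 70.9 TPM in pESC-PGCLCs, at least 187-fold higher than a floor of 3 reads per library.

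**Figure D3:**
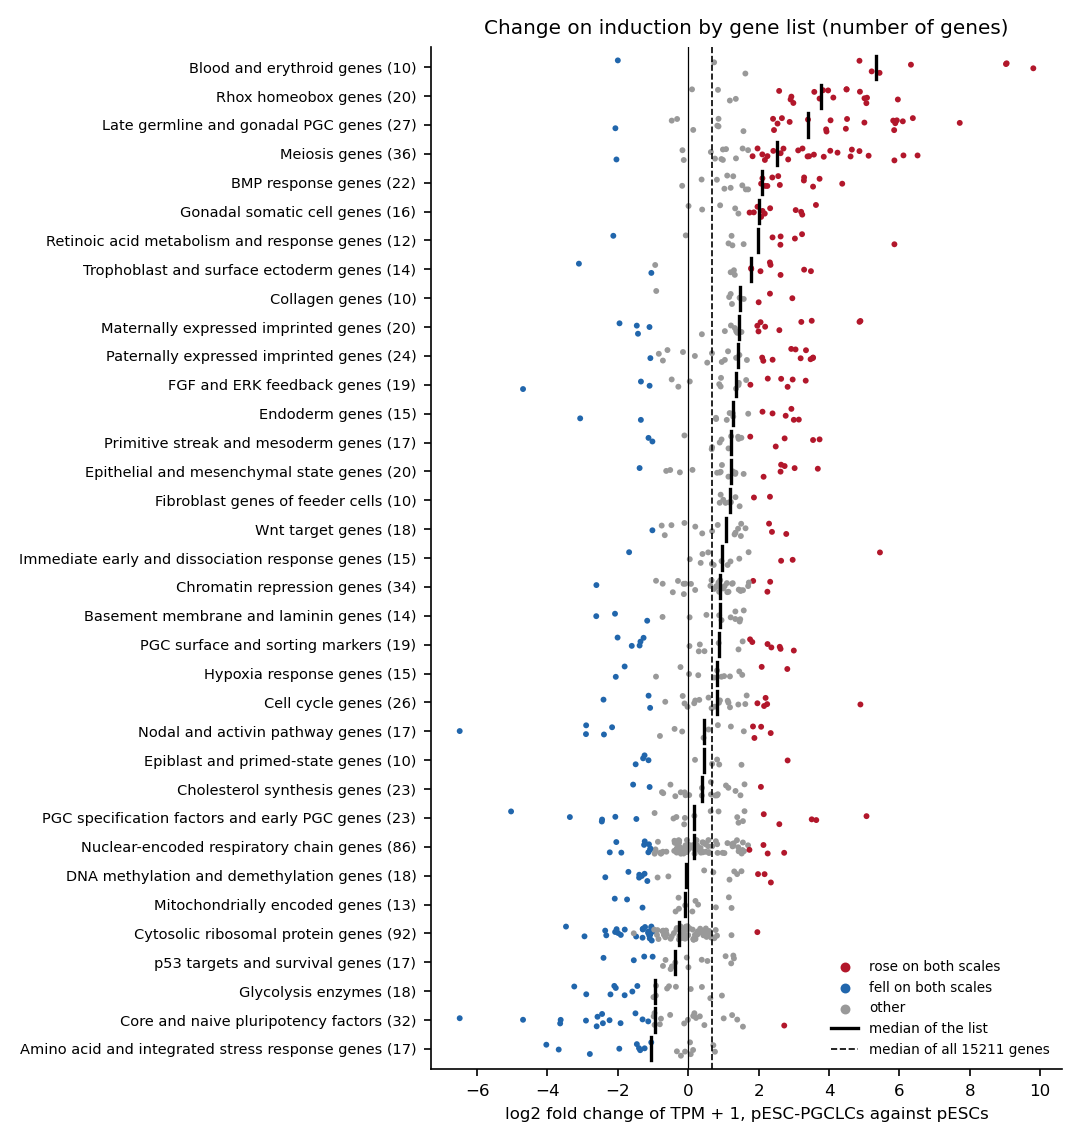
Log2 fold change of TPM + 1, pESC-PGCLCs against pESCs, for the measured members of each list with at least 10 of them (number in brackets), with the median of each list as a bar. Lists are ordered by median, from 5.33 for blood and erythroid genes to -1.05 for amino acid and integrated stress response genes; the dashed line is the median of all genes at 0.67.

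Genes downstream of BMP, the cytokine given in the medium, rose with few exceptions. Of 22 measured genes, 19 rose and 0 fell (12 and 0 after centring), with a median log2 fold change of 2.09. Among the targets, the Id genes, whose products block basic helix-loop-helix factors, were the most abundant. Id1 was at 3.14 and 2.69 TPM in pESCs and at 80.4 and 79.9 TPM in pESC-PGCLCs (log2 fold change 4.38, SE 0.240, adjusted p = 1.08e-05). Id2 rose from 15 and 14.6 TPM to 82.1 and 61.5 TPM (log2 fold change 2.19, adjusted p = 0.000464) and Id3 from 17.1 and 21.4 TPM to 218 and 176 TPM (log2 fold change 3.29, adjusted p = 2.84e-05). The homeobox gene Msx1, a known BMP target that also promotes meiosis, rose from 0.0367 and 0.0745 TPM to 11.8 and 10.9 TPM, and its relative Msx2 from 0 and 0.0704 TPM to 13.9 and 11.7 TPM. The GATA factor gene Gata2 rose from 0.0422 and 0.171 TPM to 10.1 and 9.61 TPM. In each of these genes the pESC-PGCLC libraries lay above those of pESCs, as they did for 61.5% of all genes.

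Of the feedback inhibitors of the pathway, Smad6 rose from 0.462 and 0.360 TPM to 4.84 and 5.34 TPM (log2 fold change 2.11, adjusted p = 0.000415), whereas Smad7 was at 2.52 and 3.39 TPM in pESCs and at 2.13 and 2.89 TPM in pESC-PGCLCs (log2 fold change -0.17, adjusted p = 0.634) with overlapping groups, and the pseudoreceptor gene Bambi changed by 0.81, below 2-fold. The ligand gene Bmp4 rose from 0.152 and 0.616 TPM to 6.53 and 8.13 TPM (log2 fold change 2.60, adjusted p = 9.52e-05), and the receptor gene Bmpr1a, chosen after its value was seen, from 4.93 and 8.66 TPM to 44.9 and 42.3 TPM. For Wnt targets, 9 of 18 measured genes rose and 1 fell (3 and 4 after centring), with a median of 1.08, and 0 fell when any 1 of the 4 libraries was left out. These counts lie near the shares of all genes, of which 36.8% rose and 11.8% fell (15% and 22.9% after centring). Tcf7, a nuclear effector of the pathway, rose from 4.38 and 5.89 TPM to 28.6 and 29.2 TPM and Ctnnb1, which encodes β-catenin, from 25.6 and 40.0 TPM to 160.4 and 182 TPM. Axin2, the usual reporter of the pathway, rose from 1.07 and 1.40 TPM to 5.63 and 4.36 TPM, which was not called after centring.

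The surface markers behaved unequally, beside 36.8% of all genes that rose and 11.8% that fell (15% and 22.9% after centring). Itgb3 (CD61) and Fut4, which makes the SSEA1 sugar epitope, belong to the markers the cells were sorted on, so their rise is no finding. Itgb3 was at 0 and 0.117 TPM in pESCs and at 4.18 and 3.91 TPM in pESC-PGCLCs. Fut4 had no read in pESCs and 5.10 and 5.04 TPM in pESC-PGCLCs, at least 60.1-fold above the floor, and the other enzyme of this epitope, Fut9, fell from 3.39 and 6.96 TPM to 1.26 and 1.67 TPM (log2 fold change -1.27, adjusted p = 0.00825), by 0.84 and not called without pESC replicate 2. Cxcr4, the receptor that guides migrating PGCs, had no read in pESCs and 6.17 and 7.93 TPM in pESC-PGCLCs, at least 37.1-fold above the floor. The adhesion gene Epcam rose from 23 and 22.2 TPM to 146 and 144 TPM (log2 fold change 2.62, adjusted p = 8.32e-06). Alpl, the alkaline phosphatase by which PGCs are stained, was at 8.92 and 9.81 TPM in pESCs and at 11.1 and 12.4 TPM in pESC-PGCLCs (log2 fold change 0.30, adjusted p = 0.453, and -0.43 after centring). Cdh1 (E-cadherin) fell from 23.7 and 31.4 TPM to 10.8 and 8.97 TPM (log2 fold change -1.38, adjusted p = 0.00139), and so did the tetraspanin gene Cd9, chosen after its value was seen, from 869 and 1085 TPM to 245 and 236 TPM. Of the 19 measured markers, 9 rose and 5 fell (7 and 5 after centring), and 3 fell without pESC-PGCLC replicate 1.

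Core and naive pluripotency genes changed unevenly. Of 32 measured factors, 5 rose, 14 fell and 13 were not called (1 rose and 20 fell after centring), with a median log2 fold change of -0.96 against 0.67 for all genes. Their summed level went from 27980.0 and 30460.0 TPM in pESCs to 5072 and 6367 TPM, most of it Dppa5a, an RNA-binding protein of stem cells chosen after its value was seen, which fell from 26040.0 and 28150.0 TPM to 4376 and 5627 TPM. Nanog, the homeobox factor of the naive state on chromosome 6 from 122707489 to 122714633, was at 412 and 404 TPM in pESCs and at 28.8 and 35.1 TPM in pESC-PGCLCs (log2 fold change -3.64, SE 0.254, adjusted p = 3.12e-05). Pou5f1 was low in both groups, at 7.79 and 7.49 TPM in pESCs and at 2.98 and 2.88 TPM in pESC-PGCLCs (log2 fold change -1.14, SE 0.257, adjusted p = 0.00781). With a pseudocount of 0.1 in place of 1 it was not called (adjusted p = 0.127 by limma). Pou5f1 has processed copies elsewhere in the genome that may take some of its reads, so its level is uncertain. Sox2, its DNA-binding partner, was at 35.9 and 62.4 TPM in pESCs and at 23.9 and 29.7 TPM in pESC-PGCLCs, a change of -0.81 (adjusted p = 0.0409) that stayed below 2-fold as deposited and was called as a fall of -1.54 after centring.

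Most factors of the naive state that act with Nanog fell. Tfcp2l1 dropped from 17.5 and 26.5 TPM to 2.43 and 3.16 TPM (log2 fold change -2.58, adjusted p = 6e-05), Klf4 from 21.7 and 31 TPM to 4.81 and 4.64 TPM (log2 fold change -2.24, adjusted p = 0.000139) and Klf2 from 27.6 and 32.3 TPM to 7.44 and 6.85 TPM (log2 fold change -1.92, adjusted p = 0.000506). Tbx3 fell from 2.10 and 1.93 TPM to 0.0355 and 0.0963 TPM (log2 fold change -1.5, adjusted p = 0.000106), and Zfp42 (Rex1), a classical marker of undifferentiated cells, from 132 and 214 TPM to 68.4 and 67.3 TPM (log2 fold change -1.30, adjusted p = 0.00198), a fall of 0.95 and so below 2-fold without pESC replicate 2. Esrrb, an orphan nuclear receptor, was at 9.65 and 15.1 TPM in pESCs and at 5.15 and 6.13 TPM in pESC-PGCLCs, a change of -0.98 just under 2-fold that was called as a fall after centring. Utf1, a chromatin factor of stem cells and early germ cells, went the other way and rose from 8.81 and 6.11 TPM to 49 and 60.4 TPM (log2 fold change 2.73, adjusted p = 0.00018), the single member to rise on both scales.

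Signals of the early epiblast were among the strongest losses. Tdgf1 (Cripto), the co-receptor of Nodal, was at 426 and 600.1 TPM in pESCs and at 2.96 and 6.97 TPM in pESC-PGCLCs (log2 fold change -6.50, SE 0.339, adjusted p = 8.87e-06). Fgf4, the growth factor that stem cells secrete and that readies them for differentiation, fell from 30.3 and 51.3 TPM to 0.110 and 1.20 TPM (log2 fold change -4.70, adjusted p = 3.84e-05). Nodal itself fell from 7.06 and 6.44 TPM to 0.560 and 0.913 TPM (log2 fold change -2.16, adjusted p = 0.000126), its inhibitor Lefty1 from 11.4 and 17.5 TPM to 1.34 and 2.54 TPM and Lefty2 from 30.5 and 41.8 TPM to 2.74 and 5.45 TPM. Gdf3, a ligand of the same family, fell from 141 and 158 TPM to 18.7 and 19.5 TPM (log2 fold change -2.91, adjusted p = 7.7e-06). Over the whole list of the Nodal and activin pathway the calls were split, 6 up and 5 down (4 and 7 after centring) of 17. Among all genes, 36.8% rose and 11.8% fell (15% and 22.9% after centring).

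Genes of the primed epiblast and of the primitive streak differed among themselves. Of 10 measured epiblast genes, 2 rose and 4 fell (1 and 4 after centring, and 2 falls without pESC replicate 2). Otx2, Fgf5 and Pou3f1, which mark epiblast-like cells, stayed under the 1 TPM rule, with 1.10 TPM for Fgf5 in pESC-PGCLC replicate 2 as the highest value. The streak factor gene T was at 0.491 and 1.79 TPM in pESCs and at 1.01 and 0.780 TPM in pESC-PGCLCs (log2 fold change -0.11, adjusted p = 0.804, and 0.34 without pESC replicate 2), and Mixl1 at 0.347 and 0.453 TPM in pESCs and at 1.02 and 1.44 TPM in pESC-PGCLCs. Eomes stayed under the rule at up to 1.07 TPM. Of the wider streak and mesoderm list, Msx1 and Msx2, given above, rose on both scales, and its counts are given with the other lineages. Mesp1, of early mesoderm, had no read in pESCs and 1.57 and 2.17 TPM in pESC-PGCLCs, at least 6.92-fold above the floor, and was not called after centring.

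Predicted genes and small RNAs aside, the deepest falls were mostly of genes with other roles. Gpx2, a glutathione peroxidase on chromosome 12 from 76792333 to 76795554, dropped from 211 and 247 TPM to 0.219 and 0.693 TPM (log2 fold change -7.32, SE 0.238, adjusted p = 2.31e-06). The metallothionein gene Mt1, whose product binds zinc and copper, fell from 4329 and 3294 TPM to 69.9 and 77.6 TPM and its neighbour Mt2 from 4550.0 and 3812 TPM to 61.3 and 67.6 TPM. Their sequences resemble each other, so reads may be shared. Upp1, which splits uridine, dropped from 600.5 and 391 TPM to 5.27 and 7.97 TPM (log2 fold change -6.02, adjusted p = 4.86e-06). Obox6, an oocyte and early embryo homeobox gene, fell from 95 and 145 TPM to 0.175 and 0.158 TPM (log2 fold change -6.67, adjusted p = 2.54e-06), and Elobl, an elongin-like gene, from 278 and 156 TPM to 0.987 and 1.40 TPM. The others of the 12 deepest falls were Tdgf1, Serpinb6c (a serine protease inhibitor, -6.07), Ubd (a ubiquitin-like modifier, -5.57), Apela (a peptide hormone of stem cells, -5.41), and the zinc finger genes Zfp987 (-5.82) and Zfp989 (-5.32). In the pESC libraries Zfp987 stood at 353 and 132 TPM and Zfp989 at 326 and 92 TPM, so the size of their fall differs with the library, and they belong to a family of near copies. Of the genes of the 2-cell-like state, a rare state of stem cell cultures, 1 rose and 4 fell of 6 measured (1 and 5 after centring). Zscan4d, the usual marker of that state, was at 1.75 and 1.73 TPM in pESCs and had no read in pESC-PGCLCs (adjusted p = 0.0603), so it did not pass the test as deposited.

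Metabolic genes formed another group of losses. Of 18 measured glycolysis genes, 0 rose and 8 fell (0 and 14 after centring). Their median log2 fold change was -0.95, and the summed level of all 21 in the table went from 2342 and 2693 TPM to 1227 and 1293 TPM. Hk2, hexokinase and the entry step, was at 56.7 and 72.1 TPM in pESCs and at 5.35 and 6.45 TPM in pESC-PGCLCs (log2 fold change -3.24, SE 0.189, adjusted p = 1.41e-05). The glucose transporter gene Slc2a3 fell from 54 and 62.4 TPM to 6.21 and 7.72 TPM and Slc2a1 from 18.2 and 16.3 TPM to 3.72 and 4.76 TPM. Lower in the pathway, Eno1 (enolase) fell from 116 and 132 TPM to 23.8 and 28.4 TPM and Ldha (lactate dehydrogenase) from 354 and 425 TPM to 96.2 and 88.7 TPM. Pkm, pyruvate kinase, was at 58.5 and 70.2 TPM in pESCs and at 64.5 and 70.2 TPM in pESC-PGCLCs (log2 fold change 0.07, adjusted p = 0.739, and -0.66 after centring), with overlapping groups.

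The amino acid and integrated stress response list showed 0 genes up and 9 down of 17 measured (0 and 10 after centring), with a median of -1.05. Atf4, its transcription factor, fell from 70.9 and 65.8 TPM to 17.7 and 16 TPM (log2 fold change -1.96, adjusted p = 0.000129). Its target Asns (asparagine synthetase) dropped from 621 and 729 TPM to 88.9 and 104 TPM (log2 fold change -2.80, adjusted p = 8.24e-06), Cth, which makes cysteine, from 118 and 115 TPM to 4.46 and 8.49 TPM (log2 fold change -4.03, adjusted p = 1.98e-05), and the stress-induced Nupr1 from 80.5 and 88.7 TPM to 3.08 and 9.89 TPM (log2 fold change -3.68, adjusted p = 0.000181). Ddit3, which the same response turns on, was at 11.2 and 17 TPM in pESCs and at 14.7 and 14 TPM in pESC-PGCLCs, and Trib3 at 4.12 and 3.10 TPM in pESCs and at 2.98 and 3.65 TPM in pESC-PGCLCs, with overlapping groups for both. Of 92 cytosolic ribosomal protein genes, 2 rose and 26 fell, and 1 and 44 did after centring, while 17 fell without pESC replicate 1. Their summed level was 121400 and 97410.0 TPM in pESCs and 84490.0 and 75150.0 TPM in pESC-PGCLCs. For nuclear-encoded respiratory chain genes the calls turned with the scaling, 18 up and 9 down of 86 as deposited and 4 up and 26 down after centring, and 5 went down without pESC-PGCLC replicate 2. Of 23 cholesterol synthesis genes, 6 rose and 2 fell (1 and 6 after centring). Of all genes, 36.8% rose and 11.8% fell (15% and 22.9% after centring). As deposited, the rises of the respiratory chain and cholesterol lists thus lay below the share of all genes, and their falls lay near it.

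Genes that set or remove DNA methylation were divided. Of 18 measured, 7 rose and 7 fell (3 and 9 after centring), with a median of -0.06. The shares of all genes were 36.8% and 11.8% (15% and 22.9% after centring), so the rises lay near that share. Uhrf1, which brings the maintenance enzyme to the replication fork, fell from 19.4 and 26.9 TPM to 6.51 and 6.19 TPM (log2 fold change -1.70, SE 0.251, adjusted p = 0.000968), while the enzyme's own gene, Dnmt1, rose from 3.78 and 4.55 TPM to 18.4 and 20.4 TPM (log2 fold change 1.98, SE 0.216, adjusted p = 0.000213). The de novo enzyme gene Dnmt3b fell from 3.99 and 4.81 TPM to 1.26 and 1.29 TPM (log2 fold change -1.24, adjusted p = 0.00123), as did their cofactor Dnmt3l from 3.73 and 3.90 TPM to 0.707 and 0.960 TPM (log2 fold change -1.40, adjusted p = 0.000276). Dnmt3a rose from 0.472 and 0.451 TPM to 3.10 and 3.25 TPM, which was not called after centring. Zfp57, a zinc finger protein that guards methylation at imprints, dropped from 9.29 and 11.4 TPM to 0.806 and 1.68 TPM (log2 fold change -2.36, adjusted p = 0.000316). Tet1 and Tet2, which oxidise methylcytosine, changed by -0.56 and -0.87, below 2-fold, and were called as falls after centring. The remodeller gene Hells rose from 29.1 and 37.4 TPM to 153 and 151 TPM and Uhrf2, a relative of Uhrf1, from 1.81 and 3.01 TPM to 15.3 and 17 TPM.

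Of 34 chromatin repression genes, 15 rose and 1 fell (3 and 5 after centring), against 36.8% and 11.8% of all genes (15% and 22.9% after centring). The gene that fell was the histone deacetylase gene Hdac1, from 85.5 and 109.6 TPM to 14.3 and 15.8 TPM (log2 fold change -2.61, SE 0.164, adjusted p = 1.93e-05). The genes that rose on both scales encode enzymes for methylation of histone H3 lysine 9, namely Setdb2 (2.33), Suv39h2 (2.25) and Setdb1 (1.85). Ezh2, of the Polycomb complex, rose from 13.5 and 20.9 TPM to 34.5 and 40.7 TPM, a change of 1.11 that was not called after centring, without pESC replicate 1 (0.82) or without pESC-PGCLC replicate 2 (0.99).

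Imprinted genes of both parental classes were measured, and of all genes 36.8% rose and 11.8% fell with a median of 0.67 (15% and 22.9% after centring). The pESCs hold maternal chromosomes only, on which paternally expressed genes are normally silent. Of 24 measured genes expressed from the paternal allele, 15 rose and 1 fell (10 and 4 after centring), with a median of 1.41. Snrpn, a splicing protein gene on chromosome 7 from 59982495 to 60140219, was at 6.80 and 9.46 TPM in pESCs and at 94.8 and 105 TPM in pESC-PGCLCs (log2 fold change 3.48, SE 0.213, adjusted p = 1.75e-05). It shares its transcript with Snurf, which moved with it, from 12.1 and 21.9 TPM to 198 and 203 TPM, so that reads of the pair cannot be told apart. Peg3, a zinc finger gene, rose from 2.19 and 3.41 TPM to 41.3 and 44.5 TPM (log2 fold change 3.55, adjusted p = 6.54e-06), Ndn (necdin) from 1.11 and 0.968 TPM to 17.2 and 18.1 TPM (log2 fold change 3.19, adjusted p = 6.08e-06), and Mest, which overlaps Copg2, from 2.13 and 3.92 TPM to 28.8 and 29 TPM (log2 fold change 2.93, adjusted p = 3.08e-05). Igf2, the growth factor gene, was near 0 in pESCs at 0 and 0.0806 TPM and at 9.13 and 10.1 TPM in pESC-PGCLCs (log2 fold change 3.35, adjusted p = 7.35e-06), with part of its sequence shared with neighbouring genes. Peg10 and Dlk1 stayed under the rule, and Plagl1, a zinc finger gene, was at 7.38 and 11.5 TPM in pESCs and at 10.1 and 11.2 TPM in pESC-PGCLCs (log2 fold change 0.19, adjusted p = 0.57, and -0.54 after centring).

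Of 20 measured genes expressed from the maternal allele, 15 rose and 4 fell (9 and 4 after centring), with a median of 1.45. H19, a long noncoding RNA, rose from 0.139 and 0.234 TPM to 36.3 and 31.1 TPM (log2 fold change 4.87, SE 0.210, adjusted p = 4.87e-06). Cdkn1c (p57), an inhibitor of the cell cycle, rose from 0.726 and 1.64 TPM to 59.5 and 65.6 TPM (log2 fold change 4.89, adjusted p = 7.83e-06), and Phlda2, a restrainer of placental growth, from 60.1 and 70.4 TPM to 774 and 729 TPM (log2 fold change 3.51, adjusted p = 4.2e-06). Igf2r, the clearing receptor for Igf2, rose from 1.34 and 1.43 TPM to 8.01 and 8.59 TPM. Meg3, a noncoding RNA of the Dlk1 domain, fell from 1.77 and 2.17 TPM to 0.377 and 0.388 TPM (log2 fold change -1.10, adjusted p = 0.000663). In PGCs, H19 stood at 120.4 and 84 TPM, Cdkn1c at 98.5 and 73.1 TPM and Phlda2 at 428 and 466 TPM.

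**Figure D4:**
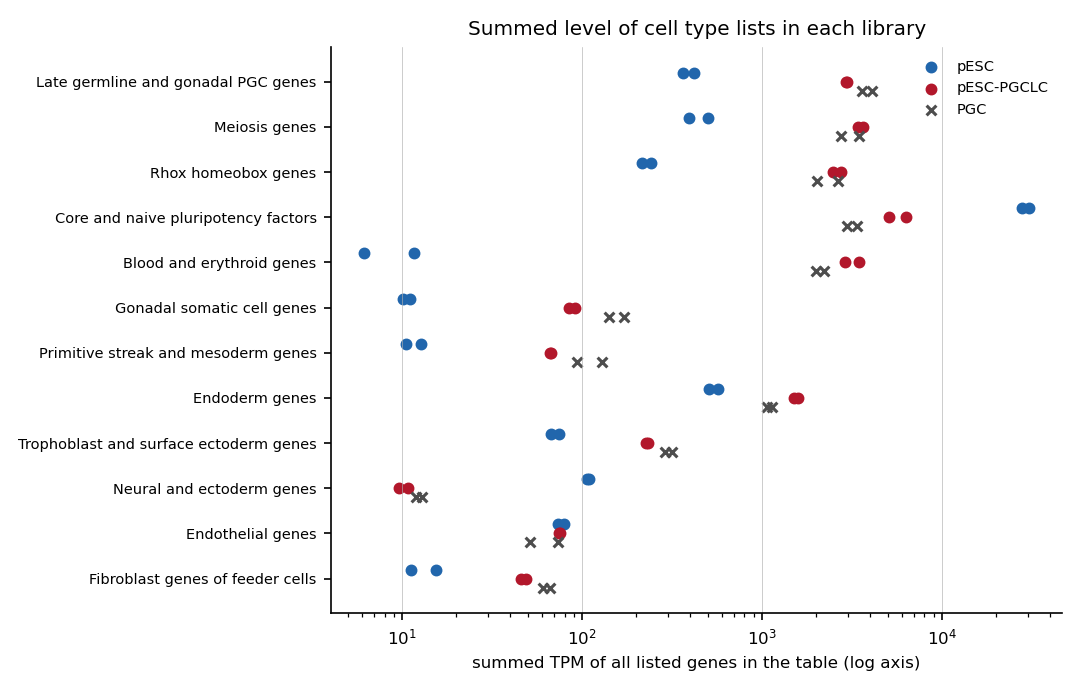
Summed TPM of all genes of each list in the table, on a log axis, for the 2 libraries of pESCs (blue), pESC-PGCLCs (red) and PGCs (grey crosses). Blood and erythroid genes went from 6.18 and 11.6 TPM in pESCs to 3445 and 2911 TPM in pESC-PGCLCs, the largest relative shift of the lists drawn, and stood at a similar order in PGCs.

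Genes of other lineages were measured beside the germline genes. Of the 10 measured blood and erythroid genes, 8 rose and 1 fell (7 and 1 after centring), with a median log2 fold change of 5.33, or 4.85 with the 3 members without reads in pESCs set at the floor. The members that rose most are haemoglobin chains. Hbb-y, an embryonic β-type chain and the gene with the largest log2 fold change of all 15211, was at 0 and 1.64 TPM in pESCs and at 1664 and 1274 TPM in pESC-PGCLCs (log2 fold change 9.81, SE 0.388, adjusted p = 3.96e-06). Hba-x, the embryonic α-type chain, was at 0 and 0.492 TPM in pESCs and at 636 and 639.9 TPM in pESC-PGCLCs (log2 fold change 9.03, adjusted p = 1.34e-06), and the α chain Hba-a1 at 0 and 1.71 TPM in pESCs and at 933 and 814 TPM in pESC-PGCLCs (log2 fold change 9.05, adjusted p = 5.43e-06). Hba-a1 and Hba-a2 are near copies, and reads may be split between them. Hbb-bs, the adult-type β chain, had no read in pESCs and 87 and 72.5 TPM in pESC-PGCLCs, at least 178-fold above the floor. The regulators of the erythroid lineage were near 0. Gata1 was at 0.513 and 0.379 TPM in pESCs and at 0.530 and 0.0436 TPM in pESC-PGCLCs, and Klf1 at 0.669 and 0.151 TPM in pESCs and at 1.15 and 0.834 TPM in pESC-PGCLCs. Runx1, of blood stem cells, reached 0.506 and 0.575 TPM in pESC-PGCLCs. PGC libraries held the same chains, with Hbb-y at 1153 and 1113 TPM and Gata1 at 0.193 and 0.182 TPM.

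Genes of the somatic cells of the gonad rose as well, 13 of 16 measured with 0 falling (11 and 0 after centring), with a median of 2.02, or 1.97 with the 6 members without reads in pESCs set at the floor. Wt1, of the genital ridge, was at 0 and 0.0931 TPM in pESCs and at 13 and 11 TPM in pESC-PGCLCs (log2 fold change 3.63, SE 0.168, adjusted p = 6.09e-06). Lhx9, of the early gonad, had no read in pESCs and stood at 9.26 and 7.71 TPM in pESC-PGCLCs, at least 234-fold above the floor. Rspo1, of the ovarian pathway, likewise reached 7.15 and 9.49 TPM, at least 46.9-fold above the floor. The defining genes of differentiated supporting cells were low. Foxl2, of granulosa cells, stayed under the rule at 0.397 and 0.392 TPM, Sox9, of Sertoli cells, was at 1.22 and 2.19 TPM, and Nr5a1, the steroidogenic factor, at 1.55 and 1.83 TPM, neither of them called after centring. In PGCs, Wt1 was at 26.2 and 22.4 TPM, Lhx9 at 16.3 and 19.11 TPM and Foxl2 at 1.64 and 0.782 TPM.

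Mesoderm, endoderm and trophoblast lists gained members at low levels. Of all genes, 36.8% rose and 11.8% fell (15% and 22.9% after centring). As deposited, the falls of the mesoderm, endoderm and trophoblast lists lay near the share of all genes. Of 17 measured mesoderm genes, 10 rose and 2 fell (5 and 2 after centring, and 0 falls without pESC replicate 2), with Snai2, a factor of migrating cells, rising from 0.0563 and 0.685 TPM to 7.21 and 8.68 TPM. Of 15 endoderm genes, 11 rose and 2 fell (6 and 2 after centring). Gata6 rose from 0 and 0.0722 TPM to 6.73 and 5.46 TPM and Gata4 from 0.0583 and 0.0887 TPM to 4.24 and 3.10 TPM, while the defining genes Foxa2, Sox7, Afp and Ttr stayed under the rule, and Apoe, a lipid carrier, fell from 310.5 and 346 TPM to 28.3 and 51.1 TPM (log2 fold change -3.07, adjusted p = 5.18e-05). Of 14 trophoblast and surface ectoderm genes, 11 rose and 2 fell (8 and 3 after centring). The simple keratin gene Krt18 rose from 1.19 and 1.20 TPM to 22.9 and 24.4 TPM (log2 fold change 3.49, adjusted p = 8.8e-06) and Plet1, an epithelial surface protein, fell from 26.5 and 26.8 TPM to 1.51 and 3.11 TPM (log2 fold change -3.11, adjusted p = 6.36e-05), and Cdx2 stayed under the rule. Of the 5 measured neural genes, 1 rose and 3 fell (0 and 3 after centring). The falls were Stmn2, given above, Tubb3, a neuronal tubulin, from 9.50 and 6.49 TPM to 1.76 and 1.20 TPM, and Olig2, from 4.30 and 4.73 TPM to 0 and 0.262 TPM. Pax6 rose from 0.0876 and 0.148 TPM to 2.92 and 2.18 TPM (log2 fold change 1.66, adjusted p = 0.000238 by limma), which was not called after centring. For fibroblasts, the feeder cell type, 7 of 10 rose and 0 fell (2 and 0 after centring), and the sum of the 28 genes was 11.2 and 15.4 TPM in pESCs and 48.7 and 45.6 TPM in pESC-PGCLCs. Among their defining collagen genes, Col3a1 rose from 0.128 and 0 TPM to 4.47 and 4.16 TPM (log2 fold change 2.32, adjusted p = 3.84e-05), while Col1a1 and Col1a2 stayed under the rule in both groups. Thbs2, a matrix protein gene, rose from 0.0192 and 0.0390 TPM to 2.68 and 2.83 TPM, the other member to rise on both scales. Endothelial genes did not rise, with 0 up and 2 down of 6 (0 and 3 after centring).

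Retinoic acid genes rose, 10 of 12 measured with 1 falling (6 and 1 after centring), with a median of 1.99 and Stra8 as the member that rose most. Retinoic acid is one of the signals linked to the start of meiosis in the fetal ovary. It is not among the factors listed for the induction medium. The synthesising enzyme gene Aldh1a1 rose from 0 and 0.0935 TPM to 8.93 and 8.77 TPM (log2 fold change 3.23, adjusted p = 6.82e-06), the binding protein gene Crabp1 from 8.09 and 5.18 TPM to 46.6 and 43.6 TPM and Crabp2 from 3.27 and 3.14 TPM to 36.5 and 30.6 TPM. Aldh1a2 rose from 3.37 and 3.67 TPM to 11.3 and 8.45 TPM, which was not called after centring. The usual targets Rarb and Cyp26a1 stayed under the rule. Immediate early genes, which respond within minutes to signals and to dissociation, were called up in 7 of 15 and down in 1 (3 and 1 after centring), with all genes at 36.8% and 11.8% (15% and 22.9% after centring). The member that rose most was Fos, from 0.0484 and 0.147 TPM to 48 and 45.8 TPM (log2 fold change 5.45, adjusted p = 3.78e-06). Egr1, another such gene and a target of ERK, rose from 0.0508 and 0.0515 TPM to 6.83 and 7.63 TPM, the ERK phosphatase gene Dusp6 from 0.291 and 0.552 TPM to 8.02 and 10.2 TPM and Dusp5 from 0.230 and 0.140 TPM to 12.2 and 9.84 TPM. The part of dissociation and sorting in these values was not tested.

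Other lists were mixed, beside 36.8% of all genes that rose and 11.8% that fell (15% and 22.9% after centring). As deposited, the rises of basement membrane and hypoxia genes lay near that share. FGF and ERK feedback genes rose in 10 of 19 with 3 falls (6 and 5 after centring), genes of the epithelial and mesenchymal state in 11 of 20 with 1 fall (6 and 3), basement membrane genes in 6 of 14 with 3 falls (0 and 4), and hypoxia response genes in 6 of 15 with 2 falls (2 and 3). Collagen genes rose in 9 of 10 with 0 falls (3 and 1 after centring). Of the 13 genes encoded in the mitochondrial genome, 2 rose and 3 fell (0 and 4), with 0 rising without pESC replicate 1 or with the compared groups alone and 1 without pESC-PGCLC replicate 2. Hox genes, which mark position along the body, were mostly off, with 3 of 35 measured and 2 of those rising (1 after centring) and 1 falling.

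Cell cycle and p53 genes changed in parts, at shares that for the cell cycle lay near the 36.8% and 11.8% of all genes. Of 26 cell cycle genes, 11 rose and 3 fell (5 and 4 after centring), with Ccnd2 (cyclin D2) rising from 0.194 and 0.258 TPM to 4.92 and 4.69 TPM (log2 fold change 2.24, adjusted p = 2.89e-05) and Cdkn1c as given above. The proliferation marker gene Mki67 rose from 2.78 and 4.51 TPM to 12.2 and 14.7 TPM, which was not called after centring, and Ccnb1 (cyclin B1) was at 181 and 273 TPM in pESCs and at 252 and 248 TPM in pESC-PGCLCs (log2 fold change 0.17, adjusted p = 0.51, and -0.56 after centring). Of 17 p53 targets and survival genes, 4 rose and 4 fell (0 and 9 after centring). Without pESC replicate 1, 2 rose, and without pESC replicate 2, 2 fell. Trp53 itself fell from 44.4 and 32.4 TPM to 10.9 and 14 TPM (log2 fold change -1.55, adjusted p = 0.00406), its target Cdkn1a (p21) from 151 and 136 TPM to 24.2 and 28.3 TPM (log2 fold change -2.41, adjusted p = 3.78e-05), and Mdm2 rose from 11.7 and 14.8 TPM to 33.1 and 33.6 TPM, which was not called after centring. Interferon genes showed 1 up and 3 down of 9 measured on both scales, with the 2 largest falls in Oas1a, an antiviral synthetase, from 16.1 and 19.16 TPM to 0 and 0.395 TPM, and Bst2 (tetherin), from 17 and 12.9 TPM to 0.520 and 2.00 TPM.

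**Figure D5:**
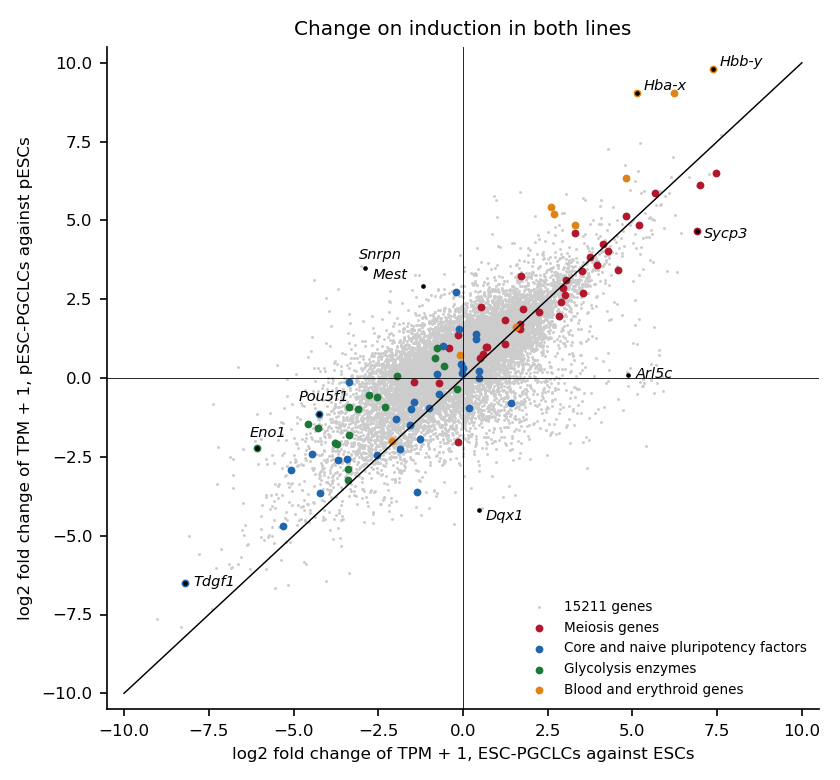
Log2 fold change of TPM + 1 on PGCLC induction in ESCs (x axis) and in pESCs (y axis) for 15211 genes, with 4 lists in colour the line of equal change and small black dots for named genes. Most genes of the meiosis list rose in both lines; most glycolysis enzymes (green) fell further in ESCs, and Snrpn and Mest rose in pESCs and fell in ESCs.

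The same induction in ESCs from fertilized embryos shares no library with that in pESCs. Pearson's r between the changes across the 15211 genes was 0.72 and Spearman's rho 0.69, a value across genes, which are not independent replicates. Of the 2280 genes that rose on both scales in pESCs, 1709 (75.0%) were also called higher in ESC-PGCLCs than in ESCs, which is 46.2% of the 3697 genes called higher there, and 32 were called lower. Of the 1790 that fell, 1336 (74.6%) were also called lower, 36.1% of the 3705 called lower there, and 82 were called higher. Among genes that rose at least 16-fold, 124 of 130 (95.4%) were called in the same direction in ESCs, and 93 of 97 (95.9%) among those that fell as much. Over all 15211 genes, 3697 were called higher and 3705 lower in ESCs. A shared direction did not mean an equal change. As deposited, the difference between pESCs and ESCs was called for 688 of the 2280 genes and 611 of the 1790. It was called for 50 of the 130 and 22 of the 97.

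The test of the difference itself, the change in pESCs minus that in ESCs, called 4108 genes (27%) higher and 680 (4.47%) lower, and 1715 (11.3%) higher and 2274 (14.9%) lower after centring. On both scales 1715 were higher and 680 lower. Without ESC replicate 1, the counts were 2644 higher and 421 lower. Of the 24 paternally expressed imprinted genes, 9 were called higher and 0 lower (5 and 0 after centring), and of the 20 maternally expressed 7 and 1 (4 and 4). After predicted genes and small RNAs were set aside by their symbols, Snrpn and Snurf were 2 of the 6 at the upper end. For Snrpn the difference of log2 changes was 6.36 (SE 0.301, adjusted p = 0.000296), with 108 and 88.4 TPM in ESCs and 14.1 and 10.9 TPM in ESC-PGCLCs, so that it fell in ESCs while it rose in pESCs. Snurf, on the same transcript, differed by 6.55 (SE 0.747, adjusted p = 0.000999), and Mest by 4.10 (SE 0.288, adjusted p = 0.000323), with 39 and 37.8 TPM in ESCs and 16.2 and 16.8 TPM in ESC-PGCLCs. The Snrpn levels of pESC-PGCLCs and ESCs overlapped, and both lay above those of PGCs, at 24.2 and 31 TPM. Other genes at this end were AY036118, 7.50 (SE 0.563, adjusted p = 0.00036), and CT010467.1, 6.09 (SE 0.450, adjusted p = 0.000347). What these 2 sequences encode was not examined, so their differences are not read as biology. Uqcrc1, a core subunit of respiratory complex III, differed by 5.06 (SE 0.272, adjusted p = 0.000296). It was at 60.2 and 70.9 TPM in pESCs and at 195 and 249.8 TPM in pESC-PGCLCs, and at 146 and 116 TPM in ESCs and 13.6 and 10.8 TPM in ESC-PGCLCs. Bsg (basigin), a partner of lactate transporters, differed by 4.32 (SE 0.307, adjusted p = 0.000323). All of these were called in the same direction after centring.

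Glycolysis genes differed in the same sense, with 14 of 18 called higher and 0 lower as deposited and 8 and 0 after centring, and with medians of -0.95 in pESCs and -3.23 in ESCs. Eno1 differed by 3.87 (SE 0.300, adjusted p = 0.000378), at 319.7 and 252 TPM in ESCs and 3.32 and 3.11 TPM in ESC-PGCLCs, and its near copy Eno1b may share its reads. Pou5f1 differed by 3.10 (SE 0.363, adjusted p = 0.0011), with 23.5 and 19 TPM in ESCs and 0.374 and 0 TPM in ESC-PGCLCs, a larger fall than in pESCs. For its partner Sox2 the difference was of opposite sign, -2.22 (SE 0.380, adjusted p = 0.00503), with 32.7 and 44.6 TPM in ESCs and 97.3 and 110.5 TPM in ESC-PGCLCs. Of the 32 pluripotency factors, 10 were called higher and 3 lower (5 and 6 after centring), and for Nanog the difference was not called at 0.59 (SE 0.360, adjusted p = 0.299), or -0.16 after centring. Id3 differed by 3.0 (SE 0.318, adjusted p = 0.000769), and was at 104 and 97 TPM in ESCs and 113 and 133 TPM in ESC-PGCLCs, and Hba-x differed by 3.91 (SE 0.279, adjusted p = 0.000327), at 0.347 and 0.628 TPM in ESCs and 49.5 and 51.9 TPM in ESC-PGCLCs.

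At the other end, Dqx1, a helicase-like gene, differed by -4.66 (SE 0.331, adjusted p = 0.000323), falling from 114 and 90.6 TPM to 4.6 and 4.57 TPM in pESCs while it was at 31.3 and 25.9 TPM in ESCs and 31.8 and 49.7 TPM in ESC-PGCLCs. Arl5c, a small GTPase gene, differed by -4.77 (SE 0.324, adjusted p = 0.000323), at 72.7 and 49.5 TPM in pESCs and at 66.3 and 61.8 TPM in pESC-PGCLCs, and at 19.3 and 19 TPM in ESCs and 479 and 714 TPM in ESC-PGCLCs. Alox8, a lipoxygenase gene, differed by -4.6 (SE 0.474, adjusted p = 0.000697). Rpap1 (-5.68), which assembles RNA polymerase II, and Ctc1 (-5.12), of the telomere complex, were also at the lower end. So was n-R5s196 (-5.05), a 5S ribosomal RNA gene that was not set aside by its symbol. The libraries of Rpap1, Ctc1 and n-R5s196 varied widely, with Rpap1 at 9.02 and 36.6 TPM in the pESC libraries. Of the meiosis list, Sycp3 differed by -2.25 (SE 0.338, adjusted p = 0.00289), having risen further in ESCs, where it was at 12.4 and 13.8 TPM in ESCs and 1702 and 1651 TPM in ESC-PGCLCs. For the list as a whole, 6 genes were called higher and 3 lower as deposited and 0 and 11 after centring, so that the scaling decided the direction.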

How the data were processed

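RNA-seq was measured in 10 libraries, 2 in each of 5 groups, of mouse cells. The authors deposited a table of TPM values for 36066 genes, which per the labels and the study's methods came from reads aligned with HISAT2 to mm10. Bowtie2, RSEM and R 3.4.2 are also named in the submitters' processing notes, and the library kit differs between labels and methods. How reads on copied sequences were assigned is not given in the sources used here. For 24 rows the gene name had been turned into a date, and these were not named. Some single-gene results are not reported here.

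Values were taken as log2(TPM + 1), and 27259 genes reaching 0.1 TPM in 2 or more of the 10 libraries were fitted with limma 3.58.1 (R 4.3.3), with group means over 5 groups, 5 residual degrees of freedom and a variance trend. Tests were two-sided, with Benjamini-Hochberg adjustment over all fitted genes and calls at an adjusted p under 0.05 with at least a 2-fold change. Counts are over the 15211 genes that reached 1 TPM in 2 or more of the 4 libraries of pESCs and pESC-PGCLCs. The steps were tested on simulated data.

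Reads per gene were recovered from TPM and GENCODE M21 exon lengths, and 95.0% to 95.5% of values came out within 0.02 of a whole number. Depth was 6779838 to 18572901 reads a library, and floors of 3 reads cover counting error only. Gene coordinates and promoters are on GRCm38.

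Genes were named when they were marked as core members of a list, or were among up to 3 called members of a list with the largest change. The 12 that rose or fell most were also named, without overlap between groups and at 10 TPM or more in the higher group. So were the 6 called genes at each end of the difference between pESCs and ESCs, at 10 TPM or more in the highest cultured group. Overlap between groups was allowed there. From both picks, predicted genes and small RNAs were set aside by their symbols, which did not catch the ribosomal RNA gene n-R5s196. Others are said to be chosen after their values were seen. The members and lists were chosen with earlier results of these data known. Alternatives covered the pseudocount, the filter, the scaling, the variance model, the groups fitted, the replicate block, the thresholds, each library left out, exon length and voom.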

Additional observations from a re-analysis of the deposited data

Results flagged for a closer look

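The results below are those of the genes named in the report whose change on induction differed between pESCs and ESCs by limma's interaction contrast, at an adjusted p under 0.05 and at least 2-fold, both as deposited and after median centring. Each difference is the log2 change of pESCs minus that of ESCs, as deposited.

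Among imprinted genes, the difference was 6.36 for Snrpn, 6.55 for Snurf and 4.10 for Mest, each of which rose in pESCs and fell in ESCs, and the same reads may serve Snrpn and Snurf. It was 1.94 for Igf2 and 2.02 for H19, and -1.09 for Igf2r. Haemoglobin chains differed upward, by 3.91 for Hba-x, 2.83 for Hba-a1, 2.83 for Hba-a2, which is nearly identical to it, and 2.44 for Hbb-y.

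Genes of metabolism and stress differed upward, namely Eno1 (3.87), Pkm (2.02), Uqcrc1 (5.06), Bsg (4.32), Asns (2.40), Cth (1.90) and Apoe (3.71), as did Trp53 (2.20) and its target Cdkn1a (1.93). Of pluripotency and Nodal genes, Pou5f1 (3.10), Utf1 (2.93), Gdf3 (2.18) and Lefty2 (2.17) differed upward and Sox2 (-2.22) downward.

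Of germ cell and meiosis genes, Tex101 (2.79), Tex19.1 (2.76) and Alpl (1.85) differed upward, and Sycp3 (-2.25), Sycp1 (-1.14), Mcmdc2 (-1.90), Dppa3 (-1.36), Taf7l (-1.02) and Obox6 (-1.13) downward. Of signalling genes, Id3 (3.0), Bmp4 (1.82), Crabp2 (2.42) and Rspo1 (2.04) differed upward and Smad7 (-1.56) and Msx1 (-1.01) downward. The methylation genes Zfp57 (2.08) and Dnmt3l (1.77) differed upward.

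The remaining genes that differed upward were Krt18 (2.54), Ubd (2.22), AY036118 (7.50) and CT010467.1 (6.09), and downward Dqx1 (-4.66), Arl5c (-4.77), Alox8 (-4.6), Rpap1 (-5.68), Ctc1 (-5.12) and n-R5s196 (-5.05). The last 3 of these had the largest standard errors among the 6 lower genes, 1.03, 0.843 and 0.751. No group has 4 or more libraries, so single libraries could not be tested as outliers.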

How the results depend on the processing

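The split of genes into higher and lower depended on the scaling. Quantile normalization gave 3272 higher and 2779 lower genes and median centring 2280 and 3488, against 5594 and 1790 as deposited. For the difference between pESCs and ESCs, quantile normalization gave 2133 and 1278 and centring 1715 and 2274, against 4108 and 680. The other alternatives stayed within 1.5 times these counts, apart from leaving out ESC replicate 1. Leaving out single libraries gave 4814 to 6111 higher and 1579 to 1693 lower genes in the first comparison, and 3065 to 5108 genes for the difference (2644 to 4418 higher, 421 to 690 lower). The arm left with 1 library was assumed to vary like the others.

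With the replicate number as a block, 5602 genes were higher and 1795 lower, and 4040 and 687 for the difference. The deviations of same-numbered pESC and pESC-PGCLC libraries had a correlation of 0.02 across 15211 genes, so the numbers were not taken as pairs. The block changed no call among 171 named genes called in the main comparison. Of these, 154 kept direction and call under every alternative, 13 lost the call after centring, 6 under quantile normalization, 3 with the compared groups alone (Ifitm3, Fut9 and Ezh2), 3 without a single library (Zfp42, Fut9 and Ezh2), and none changed sign. Limma's voom on reads recovered from TPM and exon length, chosen after seeing the data, called 5561 higher and 2491 lower genes.

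Changes of sign were found only for genes not called as deposited. After centring, log2 changes were -0.56 for Ccnb1, -0.55 for Prdm14, -0.43 for Alpl, -0.54 for Plagl1 and -0.66 for Pkm, and under quantile normalization -0.45 for Prdm14, -0.35 for Alpl, -0.46 for Plagl1 and -0.26 for Pkm. With voom they were -0.10 for Prdm14, -0.079 for Plagl1, -0.22 for Pkm and -0.12 for Ccnb1. Leaving out single libraries gave -0.041 to 0.392 for Prdm14, -0.101 to 0.478 for Plagl1, -0.059 to 0.201 for Pkm, -0.126 to 0.467 for Ccnb1 and -0.561 to 0.345 for T. The difference between pESCs and ESCs for Nanog was -0.156 after centring. The cause was not tested. Genes well under 1 TPM rest on a few reads, and their changes are imprecise.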
